A study of Mus musculus with 5 samples.

Results

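The genes described here encode the machinery of mitosis and chromosome segregation. A list of 51 such genes was looked up by symbol among array probe sets that carry a single gene symbol, and 48 of them were measured, out of 12393 genes on the array. Ccnb1, Cdca8 and Espl1 had no such probe set and were not analysed here. Where a gene had several probe sets, the one with the highest mean over all arrays was used. That mean includes the tumour arrays, so the choice can favour probe sets that are high in tumours. Microarrays were run on 3 samples of tumour epithelium from the intestine of mice with the Apc1638N allele (tumours 16, 18 and 2) and on 2 samples of normal intestinal epithelium from wild-type animals (wild types 36 and 62), all collected by laser capture. All mice were C57Bl6/J males aged 8 months, and the labels name no treatment. Apc1638N is a targeted truncating allele of Apc, the scaffold that holds beta-catenin in check. The labels give neither its zygosity nor the segment of intestine sampled, and the normal tissue came from other mice than the tumours. Since separate animals are not stated for the samples of a group, the p-values cover only the spread between samples, which may be technical.

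Cells enter mitosis when cyclin A and cyclin B activate the kinase Cdk1. Polo-like and Aurora kinases then build the spindle, kinetochores tie chromosomes to its microtubules, and the spindle checkpoint holds back the anaphase-promoting complex until each chromosome is attached. Most of these genes are transcribed late in the cell cycle under the MuvB complex with B-Myb and Foxm1, which reach promoters through a short element called CHR (cell cycle genes homology region), often beside CCAAT boxes bound by NF-Y. In normal intestine, dividing cells lie in the crypts, while the villi are covered by cells that have stopped dividing.

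Promoters are described first, because their sequence played no part in choosing the 48 genes. The genes were chosen by function, however, and genes of this function are already known for CHR and CCAAT. A high share of these words is therefore a description and not an independent result. RefSeq promoter windows on build GRCm38.p6, from 250 bases before to 50 bases after each transcription start, were found for 39 of the 48 genes. The CHR element was searched as TTTGAA or TTCGAA, the CCAAT box as CCAAT, and the E2F site as TTTGGCGC or TTTCGCGC, each on both strands. At least 1 CHR match was present in 30 of the 39 genes (76.9%), against 19.2% of all 32851 promoters in the table. CCAAT was also present in 30 (76.9%), against 37.4% of all promoters. Both words occurred in 1 promoter for 27 genes (69.2%), against 7.52% of all promoters. Some genes have several promoters, and counted by gene the shares of all 27025 genes were 21.7% for CHR, 41.1% for CCAAT and 8.61% for both. E2F words were rare, in Cdk1 and Ncapd2 (5.13% of the 39, against 0.813% of all promoters and 0.929% of all genes). In none of the promoters of these genes did matches of different motifs overlap.

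The upstream 250 bases are printed below for the 6 genes with the largest called rise whose promoter held both CHR and CCAAT, followed by Ncaph, the gene with the largest called rise among those with neither. These were picked by motif as well as by change: Kif2c and Cks2 rose as much as some of them but held only CHR (Kif2c) or only CCAAT (Cks2). Each runs 5′ to 3′ in the direction of the gene and ends just before the start, and capitals mark CHR and CCAAT matches on either strand.
Cks1b (chr3:89418292-89418541, minus strand): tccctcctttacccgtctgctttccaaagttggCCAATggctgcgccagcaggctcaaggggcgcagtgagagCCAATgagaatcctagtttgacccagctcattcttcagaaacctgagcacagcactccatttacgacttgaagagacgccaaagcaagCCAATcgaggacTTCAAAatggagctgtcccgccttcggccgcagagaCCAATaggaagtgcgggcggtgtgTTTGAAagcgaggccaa
Cdc20 (chr4:118437344-118437593, minus strand): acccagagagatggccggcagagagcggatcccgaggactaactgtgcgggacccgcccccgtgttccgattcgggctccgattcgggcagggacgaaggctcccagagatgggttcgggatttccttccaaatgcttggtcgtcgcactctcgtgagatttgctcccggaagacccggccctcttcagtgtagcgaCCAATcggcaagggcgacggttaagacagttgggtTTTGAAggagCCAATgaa
Kif22 (chr7:127042421-127042670, minus strand): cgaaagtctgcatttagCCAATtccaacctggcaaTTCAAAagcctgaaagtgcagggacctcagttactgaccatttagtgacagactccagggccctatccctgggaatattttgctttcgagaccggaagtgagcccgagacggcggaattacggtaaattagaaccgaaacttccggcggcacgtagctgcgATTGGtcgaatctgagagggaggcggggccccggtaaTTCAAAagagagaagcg
Ncapd2 (chr6:125191587-125191836, minus strand): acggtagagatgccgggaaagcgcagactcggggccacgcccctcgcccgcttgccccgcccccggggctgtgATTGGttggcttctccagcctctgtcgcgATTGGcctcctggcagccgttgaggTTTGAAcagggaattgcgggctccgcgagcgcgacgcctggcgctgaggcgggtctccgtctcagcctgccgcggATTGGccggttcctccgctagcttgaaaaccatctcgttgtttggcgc
Mki67 (chr7:135716380-135716629, minus strand): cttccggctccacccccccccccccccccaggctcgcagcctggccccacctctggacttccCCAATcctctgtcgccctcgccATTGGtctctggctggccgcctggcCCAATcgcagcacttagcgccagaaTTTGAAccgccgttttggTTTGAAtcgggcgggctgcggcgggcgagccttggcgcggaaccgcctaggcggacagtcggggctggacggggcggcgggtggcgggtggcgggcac
Cdk1 (chr10:69352913-69353162, minus strand): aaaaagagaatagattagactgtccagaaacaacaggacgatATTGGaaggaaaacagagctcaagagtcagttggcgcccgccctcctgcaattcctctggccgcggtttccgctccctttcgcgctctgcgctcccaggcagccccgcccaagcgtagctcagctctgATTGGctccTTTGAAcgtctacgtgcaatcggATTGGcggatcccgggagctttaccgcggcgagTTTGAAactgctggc
Ncaph (chr2:127133955-127134204, minus strand): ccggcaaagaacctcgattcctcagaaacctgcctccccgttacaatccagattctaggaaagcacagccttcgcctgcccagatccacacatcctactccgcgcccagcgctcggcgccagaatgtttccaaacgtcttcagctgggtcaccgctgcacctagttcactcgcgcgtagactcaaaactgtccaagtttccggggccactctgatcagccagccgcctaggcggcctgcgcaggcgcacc
In Cks1b, Cdc20, Kif22 and Cdk1 a CHR match began between 18 and 15 bases before the start, preceded by a CCAAT match on one strand or the other at -41, -53, -54 and -48. In Ncapd2 and Mki67 the CHR matches lay further out, at -123 in Ncapd2 and at -116 and -98 in Mki67. Over the 42 promoters of the 39 genes, the median start of a CHR match was -17 (46 matches) and that of a CCAAT match was -65 (75 matches). Where promoters of a gene overlap, as in Bub3, Ect2 and Prc1, the same site is counted more than once. A CHR match began between -50 and +30 in 24 of the 39 genes (61.5%). By promoter it was in 25 of the 42, against 4.60% of all promoters, and the share of all genes was not computed for this range. CHR was found in 22 of 28 genes called higher in tumours and in 8 of 11 that were not called, so it was frequent in both. Birc5, Mad2l1, Ncaph, Nuf2, Pttg1 and Tacc3 held neither CHR nor CCAAT in this window, and Pttg1 was the only one of those 6 that was not called. A match describes letters in the window and does not show that a factor binds there.

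**Figure D1:**
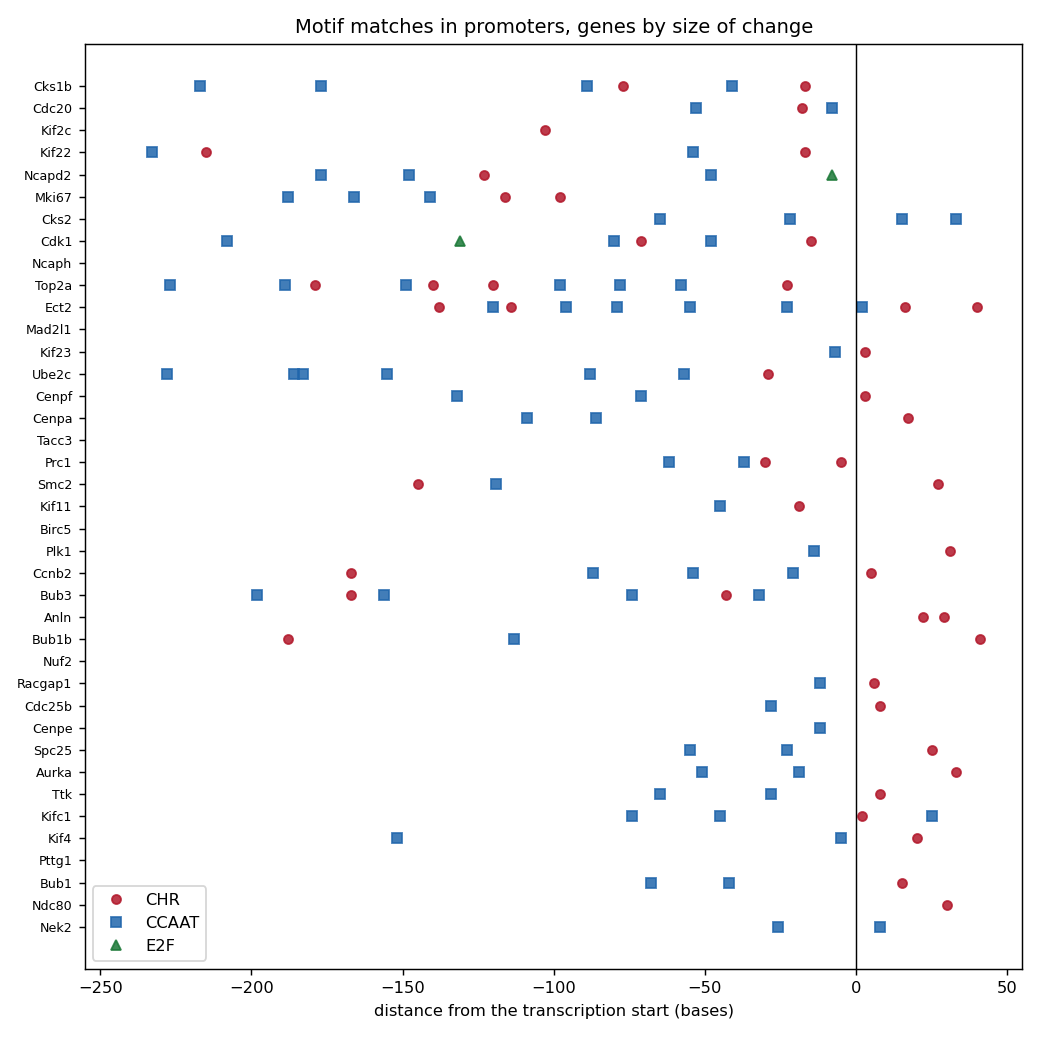
Positions of CHR (red circles), CCAAT (blue squares) and E2F (green triangles) matches on either strand in the promoters of 39 mitosis genes, by distance of the first base of the match from the transcription start in bases. Genes run from the largest change (top) to the smallest (bottom), and CHR matches gather around the start at all sizes of change.

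Mitosis and chromosome segregation genes were higher in tumours. All 48 had a positive change (tumour minus wild type, log2 signal), against 51.4% of all genes. Of the 48, 36 rose (75.0%), 0 fell and 12 did not pass, against 11.3% of all 12393 genes called higher and 10.5% called lower. A gene was called when limma's moderated test gave a two-sided p, adjusted by Benjamini-Hochberg over all 12393 genes, under 0.05. The median change was 0.73 for these genes and 0.004 for all genes. In 17 of the 36 the rise was at least 2-fold, a size reached with a call by 3.45% of all genes. The lowest tumour lay above the highest wild type in 47 of the 48 (97.9%), and 27.0% of all genes had groups separated in that direction. Smc4 was the exception, with tumour 18 at 7.64 below wild type 62 at 7.68 and tumour 2 level with it. The count of 36 fell to 14, 16, 29 and 11 when tumour 16, 18 or 2 or wild type 36 was left out, and to 0 without wild type 62. For 44 genes the change was larger than both the range among the tumours and the gap between the wild types. The same count over all genes was not made, so 44 has no background share to be read against. In bulk RNA, more dividing cells and more of these transcripts per cell cannot be told apart.

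**Figure D2:**
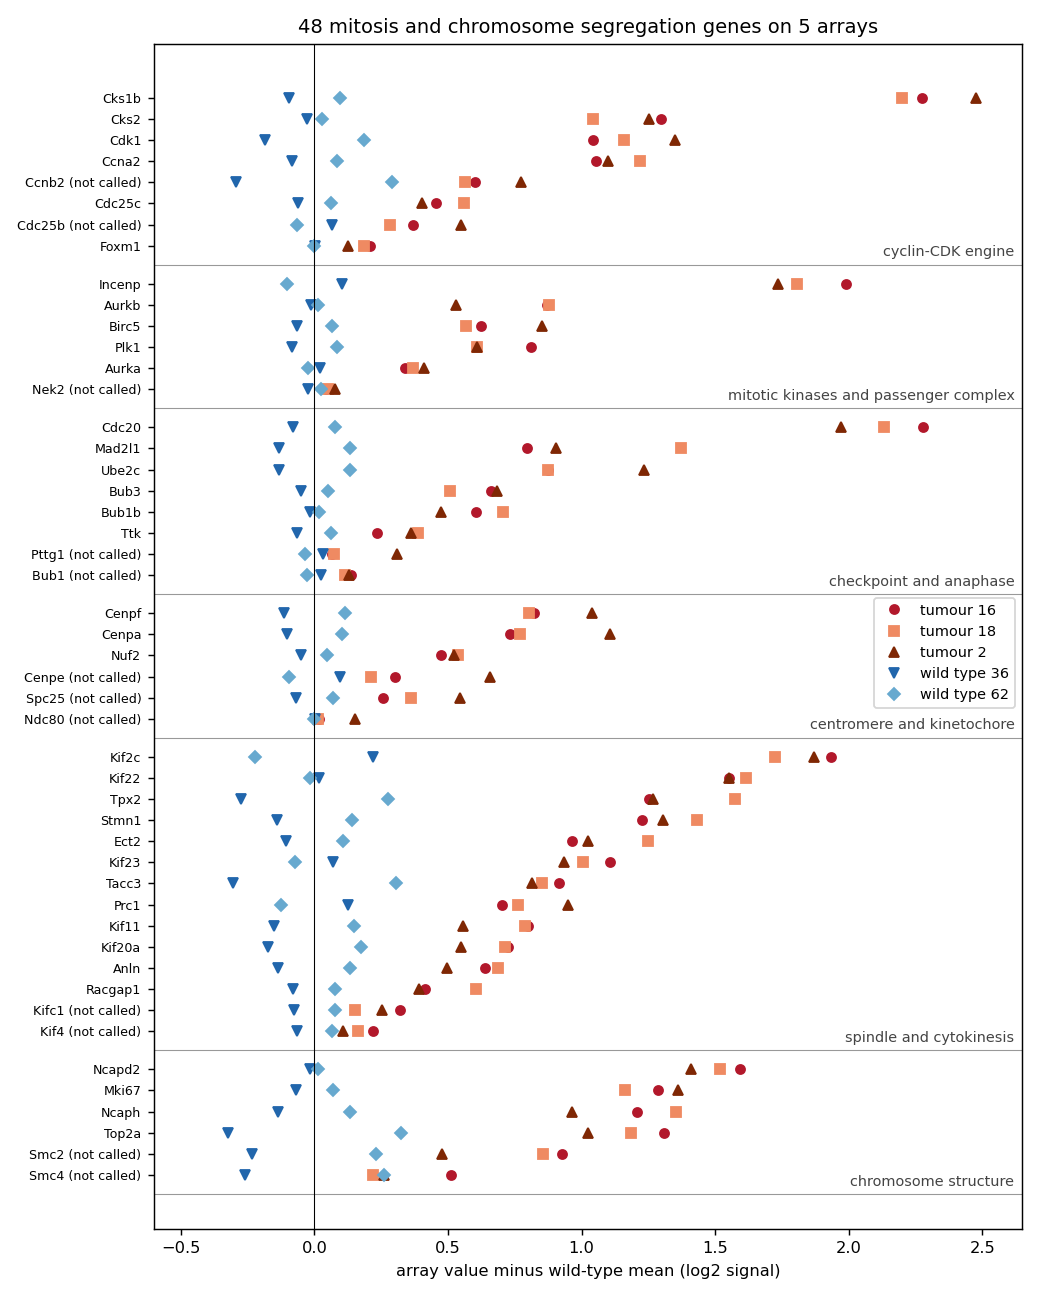
Value of each of the 48 genes on each array minus the gene's wild-type mean (log2 signal), grouped by role and sorted by change. Red and brown symbols are tumours 16, 18 and 2, blue symbols are wild types 36 and 62, and the groups are separated for 47 genes.

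**Figure D3:**
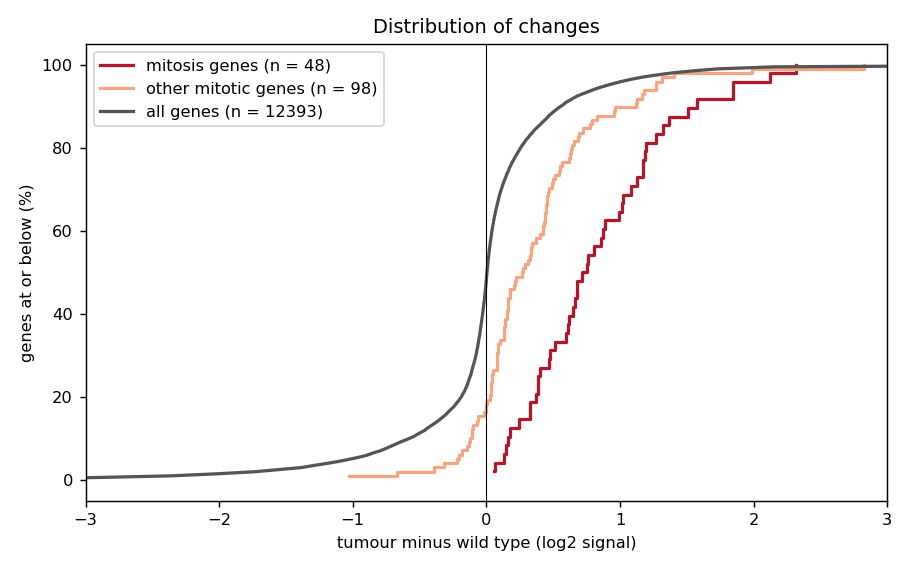
Cumulative distribution of the change (tumour minus wild type, log2 signal) for the 48 mitosis genes (red), 98 other genes of mitosis (orange) and all 12393 genes (grey). The medians are 0.73, 0.27 and 0.004.

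The engine of mitotic entry rose with 6 of 8 measured genes. Cks1b, a small subunit that docks on cyclin-dependent kinases, had the largest change of the 48. It had 10.62, 10.54 and 10.82 in tumours 16, 18 and 2, against 8.25 and 8.44 in wild types 36 and 62 (log2 signal). That is a rise of 2.32 (SE 0.11, limma adjusted p = 0.00491), with both groups far apart. Its paralogue Cks2 had 10.43, 10.17 and 10.38 in the tumours, against 9.10 and 9.16 in the wild types. The rise of Cks2 was 1.20 (SE 0.09, limma adjusted p = 0.00630), smaller than that of Cks1b, although the difference between the paralogues was not tested. Cdk1, the kinase that drives entry into mitosis, had 8.29, 8.40 and 8.59 in the tumours, against 7.06 and 7.43 in the wild types. Its rise of 1.18 (SE 0.15, limma adjusted p = 0.0153) was 2.27-fold, and every tumour lay above every wild type. Ccna2, which encodes cyclin A2, rose by 1.13 (SE 0.08, limma adjusted p = 0.00581). The phosphatase gene Cdc25c, whose product activates Cdk1, rose by 0.47. The related Cdc25b differed by 0.40 (limma adjusted p = 0.0582) and cyclin B2 (Ccnb2) by 0.65 (limma adjusted p = 0.0944), and neither passed. For Ccnb2 the wild types lay 0.58 apart on the log2 scale, at 7.25 and 7.84, against 8.14, 8.11 and 8.32 in the tumours.

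Foxm1, the transcription factor of late cell cycle genes, had the smallest change of this group. Its values were 8.17, 8.15 and 8.09 in the tumours, against 7.97 and 7.97 in the wild types. The change of 0.17 (SE 0.04) passed narrowly (limma adjusted p = 0.0477), and the wild types were almost equal (SD 0.002, n = 2). Its call was lost with quantile normalization (limma adjusted p = 0.0874), median centring (0.105), trend and robust eBayes (0.110), the mean of its 4 probe sets (change 0.09, adjusted p = 0.171), and without dim (0.0661) or tied (0.101) probe sets. It was also lost in each fit that left out 1 array, except the one without tumour 2. Mybl2, which encodes B-Myb, is outside the 48 and is named after its value was seen; it rose by 0.45 (SE 0.08, limma adjusted p = 0.0256).

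Mitotic kinases and the chromosomal passenger complex rose with 5 of 6 measured genes. Incenp, the scaffold of the passenger complex, had 10.02, 9.84 and 9.77 in the tumours, against 8.14 and 7.93 in the wild types, and rose by 1.85 or 3.59-fold (SE 0.11, limma adjusted p = 0.00498). Its kinase Aurkb had 7.34, 7.35 and 6.996 in the tumours, against 6.45 and 6.48 in the wild types, a rise of 0.76 (SE 0.13, limma adjusted p = 0.0256). The passenger subunit Birc5, also called survivin, had 7.83, 7.78 and 8.06 in the tumours, against 7.14 and 7.28 in the wild types, a rise of 0.68 (SE 0.11, limma adjusted p = 0.0217). Tumour 2 was the lowest tumour for Incenp and Aurkb and the highest for Birc5, so the subunits did not share 1 order of tumours. Plk1, the polo-like kinase of mitotic entry and centrosome maturation, had 7.17, 6.97 and 6.97 in the tumours, against 6.28 and 6.45 in the wild types. It rose by 0.68 (SE 0.10, limma adjusted p = 0.0180), and tumours 18 and 2 held the same value. Aurka, the spindle pole kinase, rose by 0.37 (SE 0.04, limma adjusted p = 0.0103). Nek2, a centrosomal kinase, had 6.15, 6.15 and 6.18 in the tumours, against 6.08 and 6.12 in the wild types, a difference of 0.06 that did not pass (limma adjusted p = 0.310).

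Of 8 measured genes of the spindle checkpoint and of anaphase onset 6 rose. None of the 8 encodes a core subunit of the anaphase-promoting complex. Cdc20, the activator of that complex and the target of the checkpoint, had 10.25, 10.10 and 9.94 in the tumours, against 7.89 and 8.05 in the wild types. It rose 4.37-fold, or by 2.13 (SE 0.11, limma adjusted p = 0.00491), the second largest change among the 48. Mad2l1, which encodes the checkpoint protein that captures Cdc20, had 8.71, 9.29 and 8.82 in the tumours, against 7.78 and 8.05 in the wild types. Its rise was 1.02 (SE 0.21, limma adjusted p = 0.0394), and tumour 18 stood highest. The call of Mad2l1 was also lost with array weights (change 0.97, adjusted p = 0.0637). Ube2c, the ubiquitin-conjugating enzyme of the complex, rose by 0.99 (limma adjusted p = 0.0221). The checkpoint genes Bub3, Bub1b and Ttk rose by 0.62, 0.60 and 0.33, and the call of Ttk was lost with array weights (change 0.30, limma adjusted p = 0.0759). Bub1, the kinetochore kinase of the checkpoint, had 6.28, 6.26 and 6.27 in the tumours, against 6.17 and 6.12 in the wild types. Its change of 0.13 did not pass (limma adjusted p = 0.0678) in its brightest probe set, and was 0.24 with a call (adjusted p = 0.0400) with the mean of both its probe sets. Pttg1, which encodes securin, the inhibitor of separase, differed by 0.15 (limma adjusted p = 0.333). Its values of 11.34, 11.35 and 11.59 in the tumours lay just above 11.31 and 11.24 in the wild types.

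Centromere and kinetochore genes had the fewest calls for their number, with 3 of 6 higher and 3 not passing, and a median change of 0.45. Cenpf, a late cell cycle protein of the outer kinetochore, had 8.52, 8.50 and 8.73 in the tumours, against 7.58 and 7.81 in the wild types, and rose by 0.89 (SE 0.11, limma adjusted p = 0.0149). Cenpa, the histone H3 variant that marks centromeres, had 6.99, 7.02 and 7.36 in the tumours, against 6.15 and 6.36 in the wild types, and rose by 0.87 (SE 0.15, limma adjusted p = 0.0253). In both, tumour 2 was the highest array. Subunits of the Ndc80 complex, which binds spindle microtubules, differed in their calls. Nuf2 rose by 0.51 (SE 0.05, limma adjusted p = 0.00852), Spc25 differed by 0.39 (adjusted p = 0.0714), and Ndc80 itself differed by 0.06 (adjusted p = 0.505). For Ndc80 the arrays had 6.17, 6.17 and 6.31 in the tumours, against 6.16 and 6.15 in the wild types, so that the call differed between genes of 1 complex while differences between those genes were not tested. The motor gene Cenpe differed by 0.39 (limma adjusted p = 0.177), and both its wild types were dim, under the 25th percentile of values on each of the 5 arrays (the lowest of these percentiles is 6.04).

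Spindle and cytokinesis genes rose with 12 of 14 measured. Kif2c, a motor that takes apart microtubule ends at centromeres, had 8.60, 8.39 and 8.53 in the tumours, against 6.89 and 6.44 in the wild types, and rose by 1.84 (SE 0.16, limma adjusted p = 0.00735). Kif22, a chromosome arm motor, had 10.41, 10.48 and 10.41 in the tumours, against 8.88 and 8.85 in the wild types. Its rise of 1.57 (SE 0.04, limma adjusted p = 0.00305) had the smallest p of the 48, and tumours 16 and 2 held the same value. Tpx2, which encodes the spindle assembly factor that activates Aurora A, rose by 1.37 (SE 0.21, limma adjusted p = 0.0206), and Stmn1, which encodes a protein that destabilizes microtubules, rose by 1.32 (SE 0.11, limma adjusted p = 0.00752). For cytokinesis, the guanine exchange factor gene Ect2 rose by 1.08, the midzone motor gene Kif23 by 1.01, the bundling protein gene Prc1 by 0.80, the scaffold gene Anln by 0.61 and Racgap1, the partner of Kif23, by 0.47. The bipolar spindle motor gene Kif11 rose by 0.71, Tacc3 by 0.86 and Kif20a by 0.66. Kif20a was the only one of the 48 that was under the 25th percentile on all 5 arrays, so the size of its change is uncertain. Kifc1, a minus-end motor, differed by 0.24 (limma adjusted p = 0.102). Kif4, a chromokinesin, had 7.72, 7.66 and 7.61 in the tumours, against 7.43 and 7.56 in the wild types, and its change of 0.16 did not pass (adjusted p = 0.144).

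Chromosome structure genes rose with 4 of 6. Ncapd2, a condensin subunit, had 8.43, 8.35 and 8.25 in the tumours, against 6.82 and 6.85 in the wild types, and rose by 1.51 (SE 0.07, limma adjusted p = 0.00450). Mki67, the source of the Ki-67 proliferation antigen that coats mitotic chromosomes, had 8.85, 8.73 and 8.93 in the tumours, against 7.497 and 7.64 in the wild types. Its 2.41-fold rise (limma adjusted p = 0.00525) was larger than the spread within either group. Top2a, the topoisomerase that untangles sister chromatids, had 9.16, 9.04 and 8.88 in the tumours, against 7.53 and 8.18 in the wild types, a rise of 1.17 (SE 0.22, limma adjusted p = 0.0327). The condensin subunit gene Ncaph rose by 1.18 (SE 0.15, limma adjusted p = 0.0153). The SMC ATPases at the core of condensin did not pass. Smc2 differed by 0.75 (limma adjusted p = 0.0780). Smc4 had 7.93, 7.64 and 7.68 in the tumours, against 7.16 and 7.68 in the wild types, a difference of 0.33 (adjusted p = 0.307). Both other probe sets of Smc4 rose, by 0.73 and 0.56 (adjusted p = 0.0128 and 0.00665 over probe sets), with the tumours above the wild types.

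Several of the largest changes depended on which probe set stood for the gene. There were 24 genes with more than 1 probe set, and they had 38 further probe sets beside the brightest. Of the 38, 17 were called higher and 0 lower over all 22626 probe sets, of which 9.58% were called higher, and their median change was 0.25, against 0.95 for the brightest probe sets of the same genes. Brightness was judged with the tumours included, so part of that gap may be built in by the choice. For 7 genes the brightest probe set had a name ending in _x_at, which Affymetrix gives to probe sets with probes that may bind other transcripts. Those 7 had a median change of 1.57, against 0.66 for the other 41. For Kif2c the other probe sets differed by 0.04, 0.37 and 0.04, against 1.84 in the brightest, and only the one at 0.37 was called. In the wild types the chosen probe set of Kif2c was dimmer (mean 6.67) than another (7.30), so it was the brightest only through the tumours. For Kif22 they differed by 0.66 (called) and 0.16 (not called), against 1.57, and for Incenp by 0.50 (called) and -0.10 (not called), against 1.85. Cdc20 rose in all 3 of its probe sets, by 2.13, 1.16 and 0.51. Cks1b rose by 0.71 in its other probe set, against 2.32 in its brightest. Ccna2, Cks2, Aurkb and Ncaph rose in both of their probe sets, with second values of 0.90, 1.30, 0.69 and 0.89. Tacc3 differed by 0.22 (not called) and 1.32 (called) in its other probe sets. Tpx2 and Stmn1 differed by 0.21 and 0.41 in their other probe set, neither called, against 1.37 and 1.32 in the brightest. The other probe sets of Top2a, Cenpf, Bub3 and Kif23 differed by between -0.07 and 0.09 and were not called. Mki67, Cdk1, Ncapd2, Plk1, Birc5 and Mad2l1 have a single probe set each. With probe sets of the _x_at kind left out, an alternative chosen after seeing the data, 33 of 48 genes rose and the median change was 0.65. Of all genes, 10.6% were called higher under that setting.

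**Figure D4:**
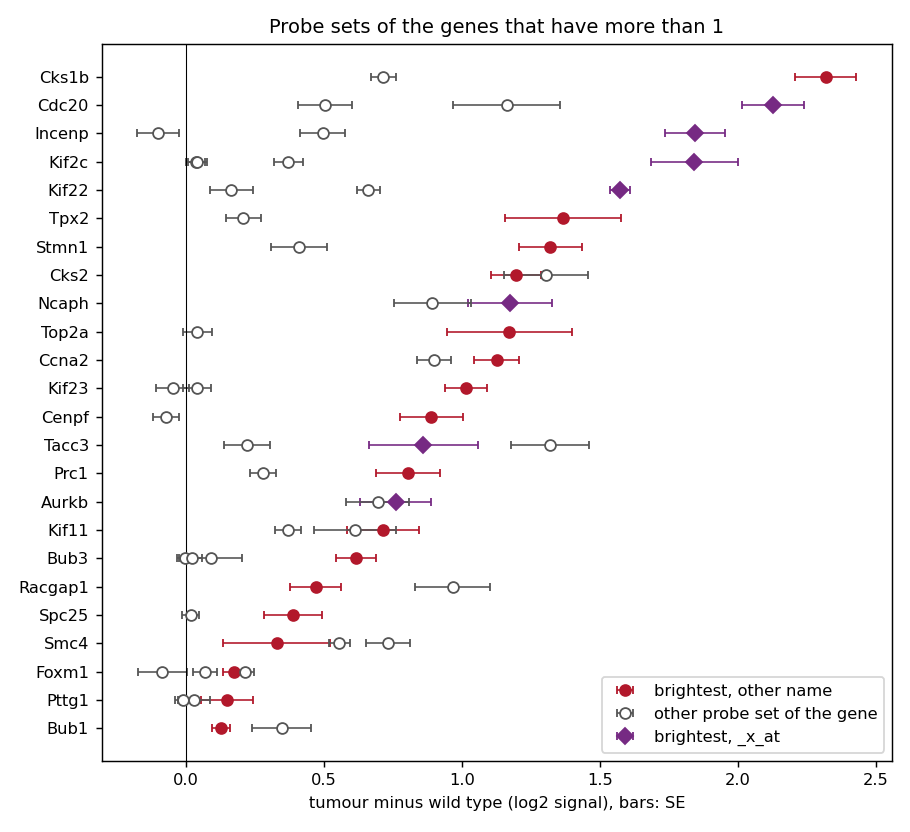
Change (tumour minus wild type, log2 signal, bars SE) in every probe set of the 24 genes with more than 1. Filled symbols are the brightest probe set of the gene, purple diamonds where its name ends in _x_at, and open circles are the others, which mostly lie to the left.

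Among 98 further genes of mitosis outside the 48, 33 rose (33.7%, against 11.3% of all genes), 2 fell and 63 did not pass, with a median change of 0.27. Without tumour 16, 18 or 2, the 33 became 8, 12 and 30, against 2.90%, 4.28% and 10.4% of all genes called higher. The count was lower still without either wild type, where that arm is 1 array. Among 21 kinetochore and centromere genes 7 rose and 0 fell, led by Cenpt (1.31), Zwilch (1.18) and Cenpk (1.13). Of 30 genes of the anaphase-promoting complex and of mitotic entry or exit, 10 rose, among them the checkpoint-silencing ATPase gene Trip13 (1.41) and the complex subunits Anapc5 (1.12) and Cdc16 (0.83). Of the other core subunits of the complex, looked up after values were seen, Anapc7 rose by 0.65 and Cdc23 by 0.44, while Anapc1, Anapc2, Anapc4, Anapc11, Anapc13, Cdc26 and Cdc27 did not pass. In that list the phosphatase regulator gene Ensa fell by 0.67 (SE 0.15, limma adjusted p = 0.0470), while its paralogue Arpp19 rose by 0.69 (SE 0.14, limma adjusted p = 0.0369), a gene named after its value was seen. Of 15 genes listed under cohesin and condensin 4 rose and 0 fell. The cohesin protector sororin (Cdca5) rose by 1.99 and the condensin subunit Ncapg by 0.55. Cdca3, which rose by 1.27, was in that list, although it does not encode a cohesin or condensin protein. Of 32 spindle, centrosome and cytokinesis genes 12 rose, led by the beta-tubulin gene Tubb5 (2.82), Cep55 (1.27) and Pbk (1.17), and Rhoa, the GTPase of the contractile ring and of many other actin structures, fell by 0.32 (SE 0.06, limma adjusted p = 0.0295). No test compared these genes with the 48.

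The tumours were alike in these genes as a group. The median of the 48 genes above the wild-type mean was 0.76 in tumour 16, 0.77 in tumour 18 and 0.73 in tumour 2. Tumour 16 was the highest tumour for 17 genes, tumour 18 for 14 and tumour 2 for 17. By role the tumours were less even: in centromere and kinetochore genes the medians were 0.39, 0.45 and 0.60 in tumours 16, 18 and 2, and in chromosome structure genes they were 1.25, 1.17 and 0.99. Wild type 62 was higher than wild type 36 in 36 of the 48 genes, where 50.3% of all genes were higher in wild type 62 and 42.8% in wild type 36. The median range among the tumours was 0.22 in the 48 genes and 0.15 in all genes, and the median gap between the wild types was 0.16 in the 48 genes and 0.10 in all genes.

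The number of calls depended on each array. Leaving out tumour 16, 18 or 2 gave 14, 16 and 29 genes higher, against 2.90%, 4.28% and 10.4% of all genes. Without either wild type the wild-type arm is 1 array, which the fit takes to vary like the tumours, so the spread then comes from the tumours alone. Leaving out wild type 36 gave 11 (22.9%, against 1.96% of all genes). Leaving out wild type 62 gave 0 called genes among the 48 and 0 among all 12393 in limma, with 42 and 3880 at an unadjusted p under 0.05. The deposited table holds exactly tied values, which also occur within a group for Plk1, Ube2c and Kif22. When probe sets with such ties were dropped first, the same fits called 26, 30, 32, 22 and 29 of 46 measured genes for tumours 16, 18 and 2 and wild types 36 and 62, against 10.6%, 12.2%, 19.2%, 9.47% and 9.49% of all genes. Ccna2, Cks1b, Incenp, Cdc20, Nuf2, Kif2c, Kif22, Kif23, Stmn1, Mki67 and Ncapd2 (11 genes) kept their call in 4 of the 5 fits and lost it without wild type 62. Mad2l1, Ttk, Kif20a, Tpx2, Tacc3, Racgap1 and Top2a (7 genes) lost it whichever array was left out. With tied probe sets dropped, 20 of the 34 called genes still measured kept the call in all 5 fits. There Tpx2 and Top2a kept it in 5 of 5, Mad2l1 and Tacc3 in 3, Kif20a and Racgap1 in 2 and Ttk in 0, while Kif22, read from another probe set, kept it in 0. How often called genes in general kept their call was not counted, so these counts of kept and lost calls have no background share. The change stayed positive for all 48 genes in all 5 fits, which share arrays with the full fit. The change of Top2a was 0.85 without wild type 36 and 1.496 without wild type 62, and that of Tpx2 was 1.09 and 1.64.

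**Figure D5:**
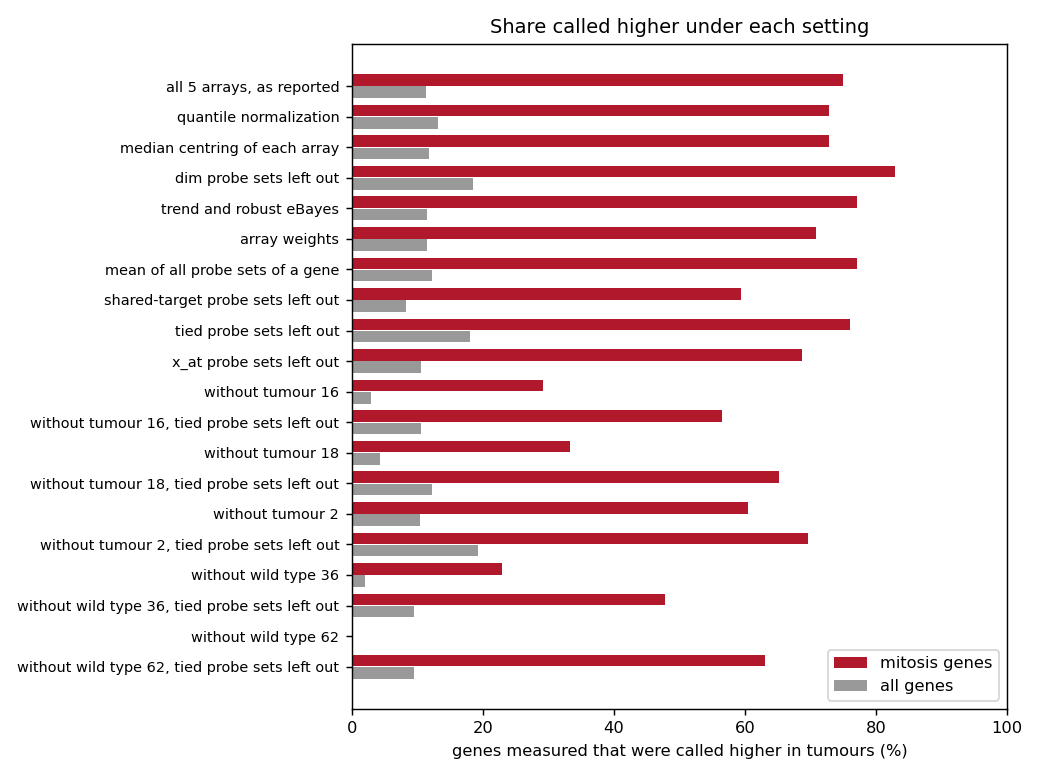
Percentage of the measured mitosis genes (red bars) and of all measured genes (grey bars) called higher in tumours under each setting of the fit. With all arrays the bars stand at 75.0% and 11.3%, and without wild type 62 both are at 0 unless tied probe sets are left out.

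Other differences between the groups moved with these genes. Beside the counts below, 11.3% of all genes were called higher in tumours and 10.5% lower. Every tumour lay above both wild types in 27.0% of all genes and below both in 23.7%. Among 9 epithelial markers 2 rose and 1 fell, with a mean level of 11.28 to 11.71 in tumours and 11.38 to 11.50 in wild types, so epithelial transcripts were bright on all arrays. Single epithelial markers went both ways: every tumour lay above both wild types in 3 of the 9 and below both in 4. Of 14 measured absorptive enterocyte markers, genes of cells that no longer divide, 9 fell and 0 rose, and all 14 lay lower in every tumour. Their mean level was 7.57 to 8.57 in tumours and 11.42 to 11.59 in wild types. Of 12 T cell markers 4 fell and 0 rose (mean level 6.45 to 6.64 in tumours and 7.17 to 7.36 in wild types), and of 7 B and plasma cell markers 2 fell and 0 rose (8.44 to 8.69 in tumours and 9.18 to 9.53 in wild types). Of 10 macrophage markers 1 (Cd14) rose (10%), with mean levels of 7.28 to 7.72 in tumours and 6.94 to 7.20 in wild types. Of 11 fibroblast and matrix markers 1 (Dcn) rose (9.09%), with 7.91 to 9.46 in tumours and 7.06 to 7.55 in wild types. Both shares were near the 11.3% of all genes. Of the 10 macrophage markers 9 had a positive change, and in 4 of the 10 every tumour lay above both wild types. All 11 fibroblast and matrix markers had a positive change, with a median of 1.30 against 0.73 for the mitosis genes. In 8 of them every tumour lay above both wild types. Tumour 18 was the highest array in this list: Col1a2, named after its values were seen, had 10.98, 11.93 and 9.30 in tumours 16, 18 and 2, against 8.61 and 8.23 in wild types 36 and 62, a change of 2.32 (limma adjusted p = 0.135). Of 8 smooth muscle markers 1 rose and 1 fell (7.13 to 7.28 in tumours and 7.07 to 7.17 in wild types), and of 7 endothelial markers 0 were called (6.67 to 6.94 in tumours and 6.63 to 6.77 in wild types). The 3′ minus 5′ beta-actin signal, a measure of RNA length, was 3.999 to 4.25 in tumours and 2.51 to 3.32 in wild types, and that of Gapdh was 4.5003 to 4.83 in tumours and 3.67 to 4.01 in wild types. The part of these differences in the rise of the mitosis genes was not tested.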

How the data were processed

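The authors deposited 1 table of log2 signals for 22690 probe sets on 5 Affymetrix arrays; that they are log2 was inferred from their range (3.38 to 14.30). RNA from laser-captured cells was column-purified with DNase digestion and biotin-labelled by a small-sample protocol, per the labels' protocols. Per the submitters' processing notes, affy in R served for processing. How background, probe summary and normalization were handled is not given in the sources used here.

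Values were used as deposited. After 64 control probe sets were set aside, 22626 remained, of which 20380 had 1 gene symbol in the platform annotation, 691 several and 1555 none. For each of 12393 genes the brightest probe set on average was kept, and the symbols of all 48 measured genes matched RefSeq through Entrez identifiers. Group was the only term in limma 3.58.1 (R 4.3.3, lmFit and eBayes, 3 residual and 1.23 prior degrees of freedom), with Benjamini-Hochberg adjustment and a threshold of 0.05. The genes and lists were chosen with earlier results of these data known, so counts and medians over them are descriptions. All measured genes of the list could be named. Values on every array are given for 10 chosen genes (Ccnb1 of these was not measured) and, per role, for the 2 largest called rises and the smallest change. Further values per array, for Ccnb2 and Pttg1, were added after they were seen. In 10 simulated data sets of 12393 genes with 200 changed, the fit called 74.1% of genes changed 2-fold, 94.2% of those changed 4-fold, and an average of 8.40 unchanged genes. The simulated noise was normal and independent between genes, without tied values, and far fewer genes were changed than the 2695 called here. These rates therefore need not hold for the deposited data. Alternatives were other normalizations, filters, variance models, probe set choices and leaving out each array. The number of arrays limits the precision.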

Additional observations from a re-analysis of the deposited data

How the results depend on the processing

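The counts moved more than the direction did. All measured genes of the list kept a positive change under quantile normalization, median centring, the filter on dim probe sets, trend and robust eBayes, array weights, the mean of all probe sets, and with tied or _x_at probe sets left out. Dropping probe sets that may bind several transcripts (names ending in _s_at, _x_at or _a_at) left 35 of 37 positive, and the change was -0.0027 for Bub3 and -0.01 for Pttg1, neither called. That setting gave 22 of 37 genes called higher, and 21 of 78 other mitotic genes called. A 2-fold minimum gave 17 of 48 genes called higher and 10 of 98 other mitotic genes, against 428 of all genes called higher (985 in either direction). The share of all genes called higher was between 10.6% and 13.1% under the settings that left all 48 measured, other than the 2-fold minimum and those that leave out arrays. Under the same settings the count of genes of the list called higher was between 33 and 37. It was 29 of 35 without dim probe sets (18.5% of all genes) and 35 of 46 without tied ones (18% of all genes). The filter on dim probe sets used the mean over all arrays, so a gene could pass it through its tumour values. The count and the median change under that filter are therefore no independent check. The median change of 0.73 became 0.70 with median centring, 0.99 without dim probe sets (35 genes), 0.76 with array weights, 0.63 with the mean of all probe sets, 0.60 without shared-target probe sets, 0.70 without tied probe sets and 0.65 without _x_at probe sets. Leaving out 1 array gave 0 to 29 genes called higher, against 0 to 1295 of all genes called higher, and a median change of 0.58 to 0.85. In either direction it gave 0 to 2380 of all genes and 0 to 30 other mitotic genes. After tied probe sets were dropped, 22 to 32 were called higher, against 906 to 1839 of all genes, and the median change was 0.57 to 0.80. In either direction 1811 to 3399 of all genes and 20 to 44 other mitotic genes were then called (without tumour 16, 23 other mitotic genes and a median of 0.67; without tumour 18, a median of 0.69). Without shared-target probe sets, 870 of 10529 genes in all were called higher. Of 406 values of single genes under the settings that kept all arrays, 380 kept their direction and their side of the threshold, 16 lost a call, 8 gained one and 2 changed sign. Kif2c lost its call without _x_at probe sets (change 0.04), Kif22 (0.16) and Tacc3 (0.22) lost theirs without _x_at or without shared-target probe sets, and Kif22 also without tied ones, and Top2a and Stmn1 without shared-target probe sets (0.04 and 0.41). The cause of these losses was not tested. No paired analysis was possible because the groups share no replicate number. Signal over background was not available, which limits what can be said of dim genes such as Kif20a, Cdc25c and Cenpe.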
